A study of Mus musculus with 4 samples.

Results

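The genes of mitochondrial fatty acid uptake and oxidation were examined in ventricular RNA of mice with extra serum response factor (SRF), the transcription factor of the CArG box, known for control of muscle and immediate early genes. The set was a list of 33 genes of known role in this pathway, chosen with earlier results of these data known. Of these, 28 had a probe set that the platform annotation pairs with exactly 1 gene symbol, and for a gene with several such probe sets the one with the highest mean over all 4 arrays was taken. Acsl1, Cpt1b, Hadha, Ucp2 and Acot2 were not analysed here. Acadvl, the very long-chain acyl-CoA dehydrogenase, had signals of 8.6 and 1.1 on the transgenic and 1.7 and 0.6 on the non-transgenic arrays and fell below the filter on dim probe sets. The remaining 27 genes were among the 7453 probe sets tested, out of 12488 on each array.

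The transgenic group held 2 samples, from mice whose hearts, and no other organ, overexpress SRF at a moderate level, and the non-transgenic group held 2 samples from mice without the transgene. All samples were cardiac ventricle at 6 months of age, with 1 Affymetrix array per sample. No source used here gives the promoter that drives the transgene, the number of lines, the strain or the sex. Srf was not analysed here, and the overexpression is taken from the labels. Whether each sample is a separate animal is not stated either, and p-values therefore reflect the variation among 4 samples, part or all of which may be technical.

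The adult heart draws most of its energy from long-chain fatty acids. They enter the myocyte through membrane carriers, are activated to acyl-CoA, cross the mitochondrial membranes as carnitine esters, and are shortened in the matrix by repeated dehydrogenation, hydration, dehydrogenation and thiolysis. Bonds in unsaturated acids are moved or reduced by auxiliary isomerases and a reductase, and electrons of the first dehydrogenation pass through the electron transfer flavoprotein to ubiquinone. Nuclear receptors of the PPAR and ERR families are known activators of these genes in heart, and a hypertrophied or failing heart is known to express less of them.

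RNA for every step of the pathway that could be measured held genes that were lower in the transgenic ventricle. Of the 27 tested genes, 17 (63.0%) were lower and 0 were higher in limma at an adjusted p below 0.05. Over all 7453 probe sets tested, 3.86% were lower and 4.07% higher by the same rule, and 1802 had an unadjusted p below 0.05. The median log2 change of the 27 genes was -0.53, beside -0.01 over all tested probe sets. Both transgenic arrays lay below both non-transgenic arrays for 24 of the 27 genes, and for 28.1% of all tested probe sets. Among the 503 tested probe sets with a mean signal at or above that of the median gene of the set, 19.1% were lower at the threshold and the median log2 change was -0.07.

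Ech1, the dienoyl-CoA isomerase that prepares certain unsaturated acyl chains for further oxidation, had signals of 3643 and 3437 on the transgenic arrays, against 6666 and 6844 on the non-transgenic arrays. The groups were far apart compared with the gap within each group. The log2 change was -0.93 ± 0.06 (moderated SE, n = 2 arrays per group), a 1.91-fold lower level at an adjusted p of 0.000609. Slc27a1, the fatty acid transport protein FATP1 of the plasma membrane, had 208 and 210.4 in transgenic and 430.3 and 424 in non-transgenic ventricle, which is 2.0-fold lower (adjusted p = 0.00473). These fold changes are on the scale of log2(signal + 9), which understates changes of dim genes.

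**Figure D1:**
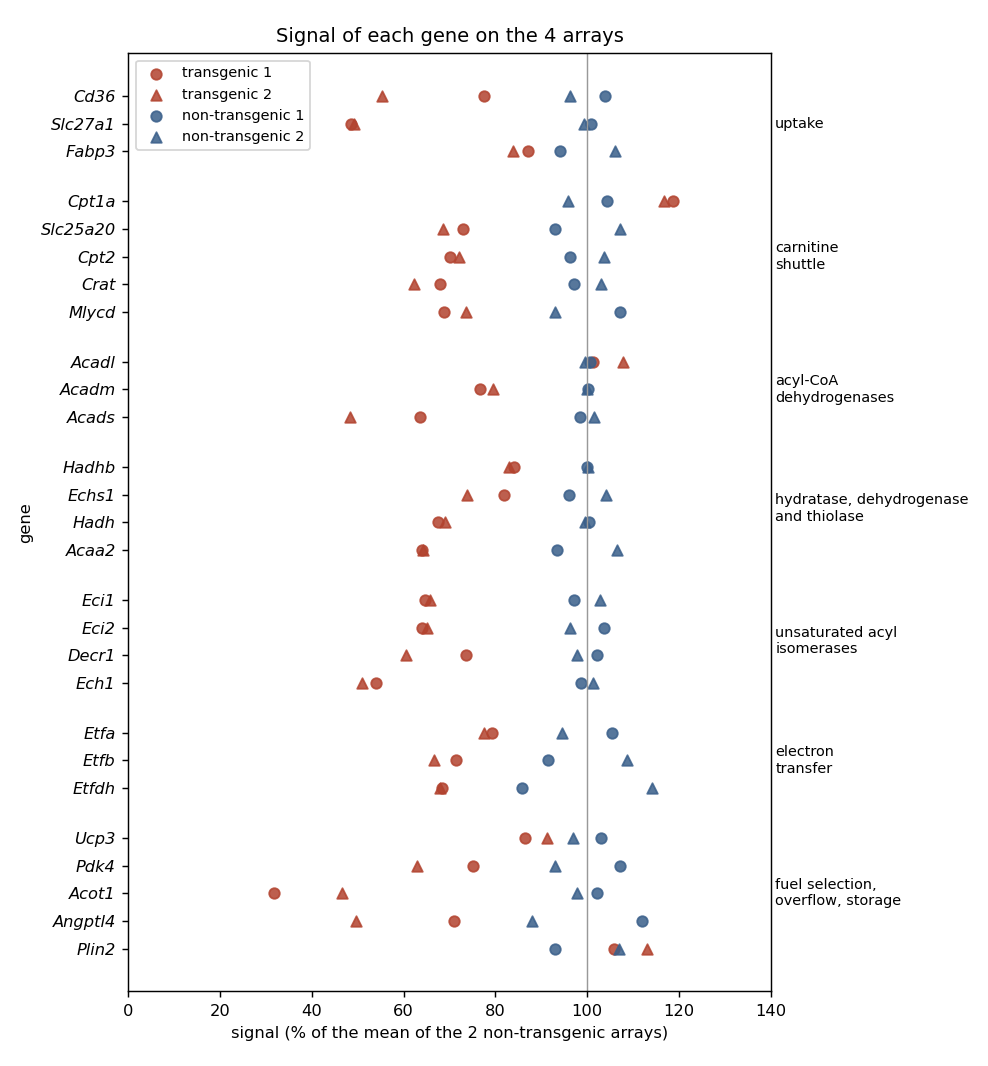
Signal of each of the 27 tested genes on each array, as a percentage of the mean of the 2 non-transgenic arrays (x axis, from 0), with genes grouped by step of the pathway (y axis). Transgenic arrays (red) lie left of both non-transgenic arrays (blue) for 24 genes, and Cpt1a, Acadl and Plin2 are the exceptions.

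The same samples also differed in the RNA of marker genes of ventricular muscle. Ventricular myocyte markers, which code for sarcomere proteins and myoglobin, had a summed signal of 75371 to 77351 on the transgenic arrays, against 93445 to 95965 on the non-transgenic arrays. All 9 tested markers had a log2 change below 0, with a median of -0.26, and 5 of them were lower at the threshold, namely Myl2, Myh6, Tnnt2, the troponin Tnni3 (-0.53 ± 0.05) and the light chain Myl3 (-0.57 ± 0.06). Fewer myocytes, less RNA per myocyte and a change of these marker genes alone cannot be told apart in these samples. Each array was also centred on the mean of those 9 markers, an alternative chosen after seeing the data. Then 6 of the 27 genes were lower (Slc27a1, Acads, Acaa2, Eci1, Ech1 and Acot1), Cpt1a and Acadl were higher, and the median change was -0.23. The same centring moved the median of all tested probe sets to 0.30 and turned 93.5% of all calls into rises, against 51.3% as deposited. With each array centred on its own median, 11 of the 27 genes were lower and 66.8% of all calls were rises.

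**Figure D2:**
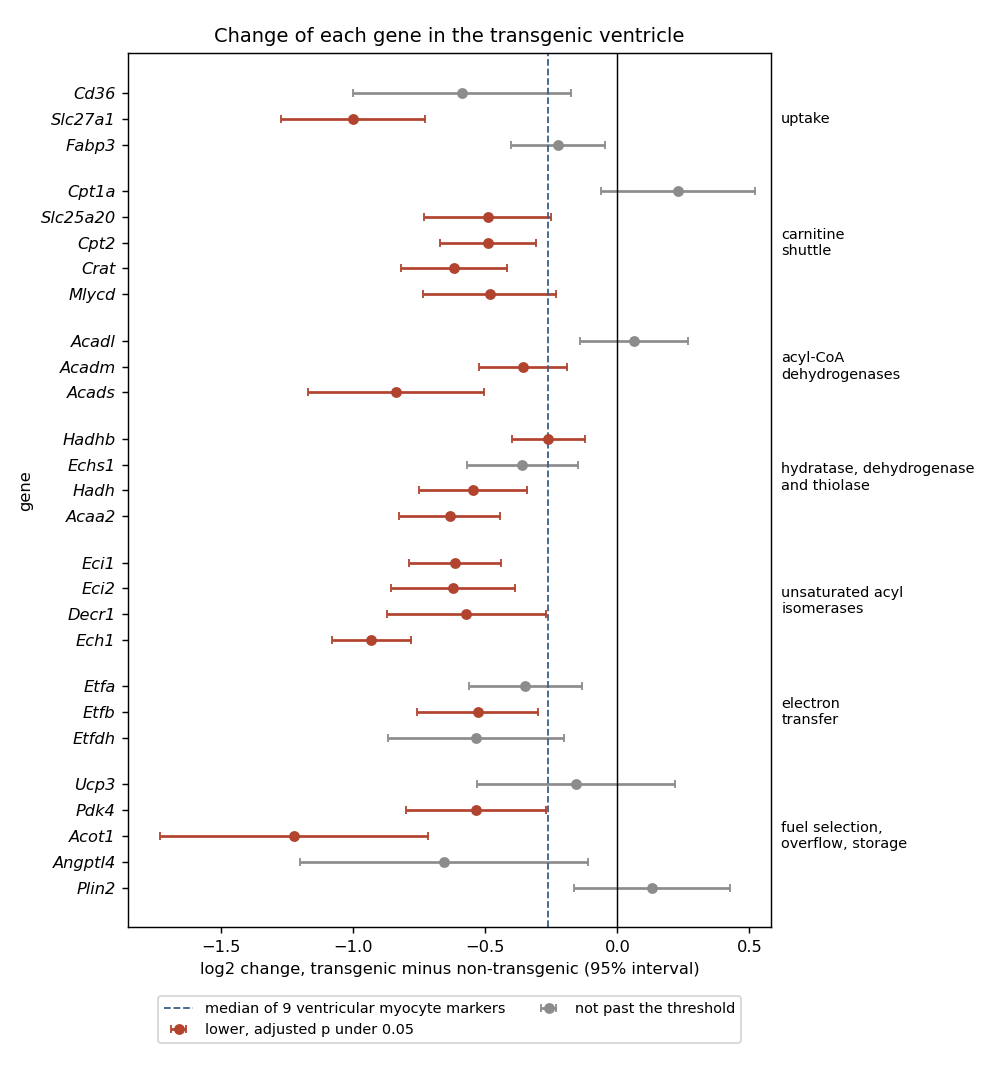
Log2 change of each tested gene, transgenic minus non-transgenic (x axis), with its 95% interval from limma, grouped by step (y axis). Genes lower at an adjusted p below 0.05 are red, others grey, and the dashed line marks the median of the ventricular myocyte markers at -0.26. Most genes lie left of that line. Cpt1a, Acadl and Plin2 lie right of 0. Fabp3, Hadhb and Ucp3 lie at or right of the line. These genes change sign when arrays are centred on the mean of the markers, which is not the median that the line marks.

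Marker genes of other cell types also differed between the groups. The summed signal of 16 hepatocyte markers was 407.4 to 438.3 on the transgenic arrays, against 3109 to 5740 on the non-transgenic arrays, and 8 of 11 tested markers were lower. Hepatocytes express many of the oxidation enzymes too. Between the 2 non-transgenic arrays the hepatocyte sum differed 1.85-fold (replicate 2 over replicate 1), and the sum of the 28 fatty acid genes 1.047-fold. The median of the gene-by-gene ratios over the 27 tested genes was 0.998, with 13 genes above 1. White adipocyte markers summed to 488.2 to 517.7 on the transgenic arrays, against 780.3 to 947.6 on the non-transgenic arrays, with 2 of 5 tested markers lower, Adipoq (-1.36 ± 0.19) and Car3 (-1.06 ± 0.18). Ucp1, which defines brown adipocytes, was at most 24.2 on any array, while Cox7a1 and Cox8b, shared by brown fat and heart, were the 2 lower ones of 4 tested markers of that type. Fibroblast markers summed to 8888 to 9315 in transgenic and 5884 to 6096 in non-transgenic ventricle. Of 8 tested, 6 were higher at the threshold and 2 had a log2 change below 0, down to -0.51. Macrophage marker sums were 2739 to 2777 in transgenic and 1736 to 1920 in non-transgenic ventricle, and 3 of 6 tested markers were higher (Cd14, Lyz2 and C1qb). Endothelial markers, from cells that also take up fatty acids, summed to 3411 to 3477 in transgenic and 3058 to 3163 in non-transgenic ventricle, with Eng higher and Tie1 lower among 7. Of 8 tested skeletal muscle markers Acta1 and Myl1 were higher and Ckm lower, and of 4 tested atrial markers Nppa and Myl7 were higher and Myh6 lower. Myh6 is also on the list of ventricular myocyte markers, and the cell source of these skeletal and atrial marker RNAs was not tested. The part of these cell types in the changes of the oxidation genes was not tested.

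**Figure D3:**
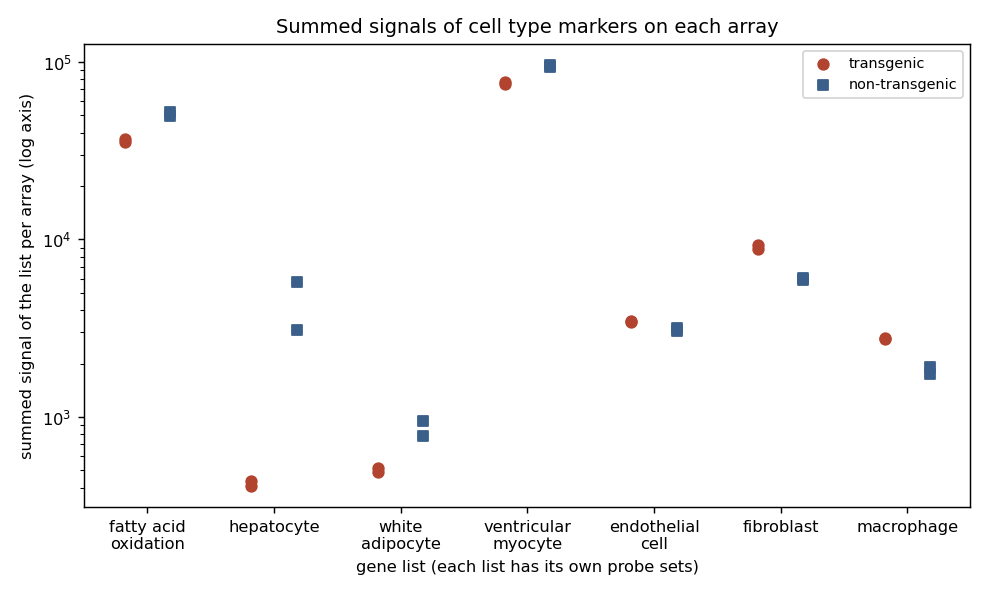
Summed signal of each gene list on each array (y axis, log scale), for the 28 fatty acid genes and 6 lists of cell type markers (x axis). Transgenic arrays (red circles) stand left of non-transgenic arrays (blue squares). Hepatocyte markers show the widest gap between groups, and the 2 non-transgenic arrays also stand apart from each other there.

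In the regions upstream of these genes, short motifs were searched in the 250 bases before each start site (RefSeq, GRCm38.p6), on both strands. The table held 24 of the 28 genes. A gene with several start sites was counted if any of its windows held the motif, while the share of all promoters counts each window. The nuclear receptor half-site AGGTCA was found before 7 of the 24 genes (29.2%), against 14.0% of 32851 promoters, and Acadm was the only one of the 14 matched lower genes that had it. The GC box GGGCGG, a common element of CpG-rich promoters, was found before 14 of the 24 (58.3%), against 32.7% of all promoters. Of the 14 matched lower genes, 10 had it. The paired half-sites AGGTCANAGGTCA and the extended half-site TNAAGGTCA, which both contain AGGTCA, were found before 0 of the 24, against 0.0335% and 1.14% of all promoters. The CArG box was found before 0 of the 24 and before 1.47% of all promoters. A match is only a match of letters in this window. The regions of 4 lower genes are given 5′ to 3′ on the gene's strand, to show these letters in their context, with GGGCGG and AGGTCA on either strand in capitals. Ech1 lies at chr7:28825088-28825337 on the plus strand, Eci1 at chr17:24426433-24426682 on the plus strand, Acadm at chr3:153944644-153944893 on the minus strand and Hadhb at chr5:30155003-30155252 on the plus strand. The Hadhb window shares 228 of its 250 bases with that of its divergent neighbour Hadha.
Ech1: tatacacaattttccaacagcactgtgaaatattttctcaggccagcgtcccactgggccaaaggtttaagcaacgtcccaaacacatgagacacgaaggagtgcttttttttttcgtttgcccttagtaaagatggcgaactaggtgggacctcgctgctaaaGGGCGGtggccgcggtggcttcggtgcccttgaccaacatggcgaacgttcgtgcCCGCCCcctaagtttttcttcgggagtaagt
Eci1: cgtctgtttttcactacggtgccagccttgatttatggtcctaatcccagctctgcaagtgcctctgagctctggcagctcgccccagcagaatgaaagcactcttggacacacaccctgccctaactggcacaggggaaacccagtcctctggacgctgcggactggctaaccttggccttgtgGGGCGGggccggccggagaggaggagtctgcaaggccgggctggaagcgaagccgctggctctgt
Acadm: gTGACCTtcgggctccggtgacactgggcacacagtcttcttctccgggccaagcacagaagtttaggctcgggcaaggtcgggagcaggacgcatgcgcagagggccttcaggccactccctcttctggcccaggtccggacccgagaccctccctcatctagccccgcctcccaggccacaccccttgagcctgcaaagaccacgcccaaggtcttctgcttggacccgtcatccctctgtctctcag
Hadhb: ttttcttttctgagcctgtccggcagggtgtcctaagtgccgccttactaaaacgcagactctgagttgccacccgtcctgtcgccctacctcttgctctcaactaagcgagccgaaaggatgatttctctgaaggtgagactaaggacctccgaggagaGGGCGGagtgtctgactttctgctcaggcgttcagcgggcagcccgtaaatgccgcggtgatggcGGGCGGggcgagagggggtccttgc

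At the uptake step, 1 of 3 tested genes was lower, which was Slc27a1. Cd36, the main fatty acid translocase of the myocyte and of capillary endothelium, had 257 and 183 in transgenic and 344 and 319 in non-transgenic ventricle. The groups did not overlap, but the transgenic arrays differed from each other, and the log2 change of -0.59 (95% interval -1.0 to -0.18) did not pass the threshold (adjusted p = 0.0946). It was -0.82 and passed without transgenic replicate 1, and was -0.35 without transgenic replicate 2. Fabp3, the fatty acid binding protein of heart cytosol, had 4774 and 4595 in transgenic and 5159 and 5813 in non-transgenic ventricle, a change of -0.23 (-0.40 to -0.05, adjusted p = 0.125). These intervals are not adjusted for the number of probe sets tested.

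In the carnitine shuttle, 4 of 5 tested genes were lower. Cpt2, which returns the acyl group to coenzyme A on the inner membrane, had 1708 and 1758 in transgenic and 2347 and 2528 in non-transgenic ventricle (-0.49 ± 0.08, adjusted p = 0.0145). Slc25a20, the carnitine and acylcarnitine exchanger, had 879 and 827 in transgenic and 1120.3 and 1290.3 in non-transgenic ventricle (-0.49 ± 0.10, adjusted p = 0.0339). Crat, which buffers acetyl groups as acetylcarnitine, had 1384 and 1266 in transgenic and 1977 and 2097 in non-transgenic ventricle. Its log2 change was -0.62 ± 0.09 (adjusted p = 0.00916), while a dimmer probe set of Crat had -0.32 ± 0.17 and did not pass (adjusted p = 0.310). Mlycd, which breaks down malonyl-CoA, the inhibitor of the first shuttle enzyme, had 681 and 729 in transgenic and 1062 and 921 in non-transgenic ventricle (-0.48 ± 0.11, adjusted p = 0.0393). Cpt1a, the liver isoform of that first enzyme, had 285 and 279.9 in transgenic and 249.8 and 229 in non-transgenic ventricle. Both transgenic arrays were above both non-transgenic arrays, and the change of 0.23 (95% interval -0.06 to 0.52) did not pass the threshold (adjusted p = 0.304).

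The acyl-CoA dehydrogenases, open the oxidation cycle for chains of different length, and 2 of the 3 tested were lower. Acads, for short chains, had 504 and 383 in transgenic and 780.5 and 804 in non-transgenic ventricle, a 1.79-fold lower level (-0.84 ± 0.14, adjusted p = 0.0175). A dimmer Acads probe set changed by -0.35 ± 0.16 and did not pass (adjusted p = 0.224). Acadm, for medium chains, had 2046 and 2118 in transgenic and 2670 and 2664 in non-transgenic ventricle (-0.36 ± 0.07, adjusted p = 0.0284). The call of Acadm was lost with median centring (limma adjusted p = 0.063) and with quantile normalization (limma adjusted p = 0.066). The calls of Hadhb and Pdk4, described below, were also lost under both. Those of Slc25a20, Mlycd and Decr1 were lost with median centring but not with quantile normalization. Acadl, for long chains, had 1037 and 1105 in transgenic and 1029 and 1019 in non-transgenic ventricle. Its change of 0.06 had a 95% interval of -0.14 to 0.27, which lies above the whole interval of Acads (-1.17 to -0.50) and of Acadm (-0.52 to -0.19). The difference between these genes was not tested.

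In the hydration, second dehydrogenation and thiolysis steps, 3 of 4 tested genes were lower. Acaa2, the thiolase that releases acetyl-CoA, had 2819 and 2829 in transgenic and 4114 and 4686 in non-transgenic ventricle, which is 1.55-fold lower (-0.63 ± 0.08, adjusted p = 0.00670). Hadh, the hydroxyacyl-CoA dehydrogenase for short and medium chains, had 771 and 788 in transgenic and 1147 and 1137 in non-transgenic ventricle (-0.55 ± 0.09, adjusted p = 0.0143). Hadhb, the thiolase subunit of the trifunctional protein for long chains, had 4755 and 4694 in transgenic and 5658 and 5667 in non-transgenic ventricle. It was 1.20-fold lower (-0.26 ± 0.06, adjusted p = 0.0408), a call lost when limma ignored the dependence of variance on signal (adjusted p = 0.287) and in each fit without 1 array. Echs1, the hydratase for short chains, had 1670 and 1507 in transgenic and 1958 and 2123 in non-transgenic ventricle and did not pass (-0.36, 95% interval -0.57 to -0.15, adjusted p = 0.0553).

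All 4 genes for the oxidation of unsaturated chains were lower, with log2 changes of -0.93 to -0.57 and a median of -0.62. Besides Ech1, these were the enoyl-CoA isomerases Eci1 and Eci2, which shift a misplaced bond, and Decr1, the dienoyl-CoA reductase. Eci1 had 1795 and 1830.4 in transgenic and 2700.2 and 2860 in non-transgenic ventricle (-0.61 ± 0.07, adjusted p = 0.00530). Eci2, whose product is also found in peroxisomes, had 489 and 498 in transgenic and 793 and 736 in non-transgenic ventricle (-0.62 ± 0.10, adjusted p = 0.0147). Decr1 had 409 and 336 in transgenic and 568 and 544 in non-transgenic ventricle, with the transgenic arrays farther from each other than the non-transgenic ones (-0.57 ± 0.13, adjusted p = 0.0408). The call of Decr1 was lost with median centring (limma adjusted p = 0.0741).

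For electron transfer, 1 of 3 tested genes passed the threshold. Etfb, the beta subunit of the electron transfer flavoprotein, had 2507 and 2342 in transgenic and 3209 and 3814 in non-transgenic ventricle (-0.53 ± 0.10, adjusted p = 0.0226). A dimmer Etfb probe set had -0.68 ± 0.16 (adjusted p = 0.0525). Etfa, the alpha subunit, had a change of -0.35 (95% interval -0.56 to -0.13, adjusted p = 0.0660), and Etfdh, which hands the electrons to ubiquinone, one of -0.53 (-0.87 to -0.20, adjusted p = 0.0690). The non-transgenic arrays of Etfdh differed 1.33-fold from each other, at 806 and 1073, against 642 and 637 on the transgenic arrays. Without non-transgenic replicate 1 its change was -0.74 and passed (adjusted p = 0.0193), and without non-transgenic replicate 2 it was -0.33.

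Of the genes for fuel selection, overflow and storage, 2 of 5 tested were lower. Pdk4, the kinase that switches off pyruvate dehydrogenase when fat is burned, had 1865 and 1562 in transgenic and 2662 and 2308 in non-transgenic ventricle (-0.54 ± 0.11, adjusted p = 0.0341). Acot1, a cytosolic thioesterase that frees fatty acids from coenzyme A, had 38.6 and 56.5 in transgenic and 124 and 119 in non-transgenic ventricle. Its log2 change was -1.23 ± 0.21 (adjusted p = 0.0193). In the fits without 1 array each, the Acot1 change was -1.455 to -0.99. Without the filter on dim probe sets Acot1 did not pass (limma adjusted p = 0.0572). The probe set may also bind RNA of close relatives such as Acot2. Ucp3, an uncoupling protein of muscle mitochondria, had a change of -0.16 (95% interval -0.53 to 0.22), and Plin2, which coats lipid droplets, one of 0.13 (-0.16 to 0.43). Angptl4, a secreted inhibitor of lipoprotein lipase, had 65.7 and 45.9 in transgenic and 104 and 81.4 in non-transgenic ventricle (-0.66, 95% interval -1.20 to -0.11, adjusted p = 0.142), and a dimmer probe set for it, at 35.3 and 37.2 in transgenic ventricle, spread widely in non-transgenic ventricle, at 105 and 29.0.

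Each fit that leaves out 1 array has a group of 1 array, which is assumed to vary like the other group. Slc27a1, Crat, Acaa2, Eci1 and Ech1 were lower in each of these 4 fits, and the other 12 of the 17 lost the call in at least 1 of them. Leaving out transgenic replicate 1 gave 12 lower genes (Cd36 among them), transgenic replicate 2 gave 10, non-transgenic replicate 1 gave 11 and non-transgenic replicate 2 gave 9. Slc27a1 was the only gene called when limma ignored the dependence of variance on signal, and an ordinary two-sample test with Benjamini-Hochberg adjustment called 0 of the 7453 probe sets (1175 had an unadjusted p below 0.05).

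Around the pathway, the lists described next were set beside it by their counts alone, and the difference in counts was not tested. Among other mitochondrial acyl-CoA enzymes, 2 of 13 tested were lower and 0 higher, with a median log2 change of -0.29. They were Ivd, an acyl-CoA dehydrogenase of leucine breakdown (-0.65 ± 0.12), and Hsd17b10, a hydroxyacyl-CoA dehydrogenase of isoleucine breakdown (-0.55 ± 0.10). Among genes for other fatty acid handling, 2 of 14 were lower and 1 higher. Pnpla2, the triglyceride lipase of lipid droplets, had 2052 and 2152 in transgenic and 3019 and 3039 in non-transgenic ventricle (-0.53 ± 0.07, adjusted p = 0.00850). Lpl, which frees fatty acids from lipoproteins in the capillary, had 3203 and 3201 in transgenic and 4591 and 4167 in non-transgenic ventricle (-0.45 ± 0.07, adjusted p = 0.0150). Slc27a4, another fatty acid transport protein, was higher at 67.6 and 74.1 in transgenic and 28.9 and 19.9 in non-transgenic ventricle (1.27 ± 0.25, adjusted p = 0.0272). Its direction was opposite to that of Slc27a1. The non-transgenic signals of Slc27a4 alone would have fallen below the filter on dim probe sets, so it was tested through its transgenic signals. Of 7 tested genes of peroxisomal oxidation, 0 passed the threshold, with a median of -0.11.

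Among 13 tested regulators of these genes, 1 was lower and 0 were higher. Esrra, the estrogen-related receptor alpha, had 764 and 774 in transgenic and 1015.4 and 1041 in non-transgenic ventricle (-0.41 ± 0.09, adjusted p = 0.0345). Ppara had a change of 0.17 (95% interval -0.13 to 0.48) and Ppargc1a one of -0.20 (-0.86 to 0.47). Ppard had one of -0.45 (-0.97 to 0.07). Ppara, Ppard and Ppargc1a did not pass the threshold. Ppard and Ppargc1a were dim, at 34.9 to 52.2 and 25.9 to 42.5 over the 4 arrays. Of 5 tested genes of the pyruvate dehydrogenase complex and its other kinases, 0 passed.

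In the citric acid cycle 7 of 15 tested genes were lower and 0 higher, with a median log2 change of -0.31. In the respiratory chain and ATP synthase list 17 of 37 were lower and 0 higher, also with a median of -0.31. Of these, 15 code for complex I and 2 (Uqcrh and Uqcrq) for complex III. Atp5pb was the 1 gene of complex V that was tested, and it did not pass (adjusted p = 0.112). Of 17 tested glycolysis genes, 6 were higher and 2 (Aldoa and Ldhb) lower, with a median of 0.21. Pgam1, a phosphoglycerate mutase, had 585.9 and 762.6 in transgenic and 357.1 and 343.1 in non-transgenic ventricle (0.92 ± 0.14, adjusted p = 0.0140). Hk1, the hexokinase that starts glycolysis, had 1360.4 and 1158 in transgenic and 544 and 749.8 in non-transgenic ventricle (0.97 ± 0.16, adjusted p = 0.0171). Pgk1, a phosphoglycerate kinase that forms ATP, had 2055.5 and 2137.5 in transgenic and 1158.9 and 1469.4 in non-transgenic ventricle (0.68 ± 0.12, adjusted p = 0.0191). Eno2, an enolase known from neurons, had 102.7 and 83.8 in transgenic and 20.8 and 34.8 in non-transgenic ventricle (1.49 ± 0.26, adjusted p = 0.0195). Like Slc27a4, Eno2 was dim in non-transgenic ventricle and passed the filter through its transgenic signals. These lists were compared by their counts and medians alone, and the difference between lists was not tested.

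**Figure D4:**
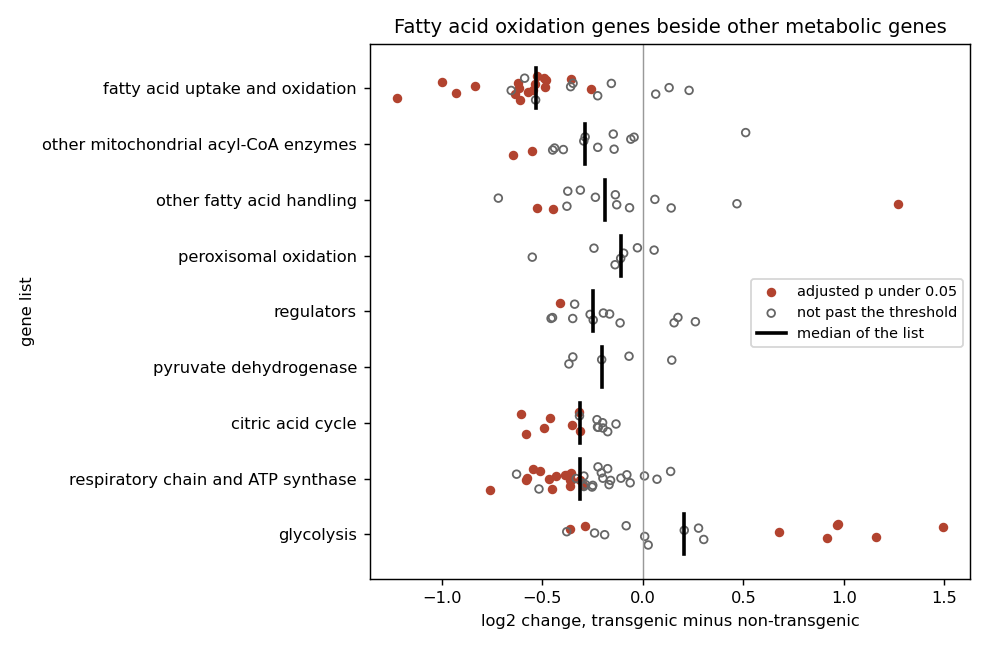
Log2 change of each tested gene, transgenic minus non-transgenic (x axis), in 9 lists (y axis). Filled points passed the threshold, open points did not, and black bars are medians, at -0.53 for fatty acid uptake and oxidation, -0.31 for the citric acid cycle and 0.21 for glycolysis.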

How the data were processed

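Total RNA was labelled with biotin and hybridised to Affymetrix arrays, per the labels' protocols. Each deposited value is the signal intensity of a probe set on 1 array. The values themselves show a linear scale and a shared scaling: leaving out the 2% brightest and 2% dimmest probe sets, every array averaged 150.1. The signal software is not given in the sources. Array medians were 49.0 and 50.6 (transgenic) and 53.9 and 52.3 (non-transgenic). The number of arrays limits the precision.

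Gene names came from the platform annotation (10833 probe sets with 1 symbol, 396 with several and 1193 not listed). Genome coordinates come from RefSeq's promoter table alone. After 66 control probe sets were left out, intensities were put on the scale log2(value + 9), with 9 from the 20th percentile of the table, and used as deposited, since array medians lay within 0.2 of each other. The lowest 40% of probe sets by mean were left out. Groups were compared with lmFit and eBayes (with trend) of limma 3.58.1 (R 4.3.3). Tests were two-sided and adjusted by the Benjamini-Hochberg method at 0.05, on 5.05 prior and 2 residual degrees of freedom. In 10 simulations of this comparison, 52.2% of 200 probe sets changed 2-fold were recovered out of 7453, and 0.7% of those changed 1.5-fold.

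The genes, lists and tests were chosen with earlier results of these data known. Every gene of the set is named, with values on each array for those past the threshold and for the brightest of each step. From each other metabolic list at most 4 genes past the threshold were named, by smallest p. Named outside that rule, after their values were seen, were the cell type markers, Ppara, Ppard, Ppargc1a, Aldoa, Ldhb, Uqcrh, Uqcrq and Atp5pb. Alternatives covered the pseudocount, normalization, filter, variance model, threshold, replicate number, choice of probe set and each array.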

Additional observations from a re-analysis of the deposited data

How the results depend on the processing

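Under both other pseudocounts, median centring, quantile normalization and each fit without 1 array, 24 of the 27 genes had a log2 change below 0, as in the main setting; filters, variance models and the replicate block leave these changes as they are. Centring on ventricular myocyte markers, chosen after seeing the data, gave 21. There Fabp3 (0.0800), Hadhb (0.0444) and Ucp3 (0.15) changed sign, 2 of the 27 genes were higher and 6 lower, the median was -0.23, and 1648 probe sets were higher and 114 lower. The number of lower genes was 17 with pseudocounts of 1 and 32, 14 with quantile normalization, 11 with median centring (median -0.45), 16 with the lowest 20% left out and 9 without a filter (172 probe sets higher and 157 lower). Without trend 1 gene was lower (44 probe sets higher and 34 lower), and the ordinary test called 0 genes and 0 probe sets (1175 at an unadjusted p below 0.05). At an adjusted p below 0.1, 21 genes were lower, with 477 probe sets higher and 484 lower. With the second probe set of the 4 genes that have one tested, 14 were lower. Without 1 array each, 9 to 12 genes were lower, their median was -0.54 to -0.45, and 125 to 232 probe sets were higher and 158 to 191 lower. The groups share replicate numbers that the labels do not tie to animals or days. Same-numbered samples did not deviate together (r = -0.06 over 7453 probe sets), and with the replicate block 18 genes were lower (Cd36 and Etfdh gained, Hadhb lost), with 348 probe sets higher and 345 lower. In the simulations, which changed 200 of 7453 probe sets, 0.7% of changes of 1.5-fold and 52.2% of changes of 2-fold were recovered. Of the calls there, 22.2% at 1.5-fold and 5.87% at 2-fold were of unchanged probe sets. More probe sets were called in the main setting (303 higher and 288 lower), and these shares need not hold for the data. A gene that missed the threshold may still differ.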
